A study of Bos taurus with 24 samples.

Results

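The genes described here are 57 DNA repair genes of cattle, chosen by symbol from the 24621 rows of an exon count table of single early blastocysts, and every 1 of them had reads in at least 1 embryo. They were sorted into 8 groups by textbook role, with 4 genes of mismatch repair, 9 of base excision repair, 9 of nucleotide excision repair, 14 of homologous recombination, 5 of end joining, 5 of damage signalling, 6 of the Fanconi anaemia pathway and 5 of DNA synthesis and damage tolerance shared by several branches. RNA of 24 embryos was sequenced 1 embryo at a time, with 8 embryos in each of 3 conditions. In vivo derived embryos were flushed from the uterus of 3 superovulated Holstein cows 7 days after insemination. Serum embryos were matured in vitro with 20% fetal bovine serum and cultured in synthetic oviduct fluid with 5% serum, and serum-free embryos were matured with 20 ng/mL epidermal growth factor and cultured with 0.4% bovine serum albumin, insulin, transferrin and selenium. Both kinds of in vitro embryo came from slaughterhouse oocytes, were collected 6 to 7 days after insemination in 3 independent experiments, and shared with the in vivo embryos a single sire and a selection for the best morphological grade at the early blastocyst stage. The in vivo group held 5 males and 3 females, the serum group 3 males and 5 females, and the serum-free group 5 males and 3 females. Embryos are named by the letter A for in vivo, B for serum and C for serum-free with their number, and the labels used here do not say which cow, experiment or sequencing lane each embryo came from, so these cannot be told apart from the conditions.

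Cells meet damaged DNA with separate branches of repair. Mismatch repair corrects copying errors, base excision repair removes single altered bases, nucleotide excision repair cuts out bulky lesions, and the Fanconi anaemia pathway opens crosslinked strands. Double-strand breaks are rejoined by homologous recombination, which copies an intact sister, or by end joining, which ligates the ends directly, while signalling kinases hold the cell cycle until repair is done. The early embryo inherits much of this machinery from the oocyte and divides quickly, so its repair genes are closely tied to replication.

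Total exon counts ran from 3253051 to 9000447 per embryo, with a median of 4454031. The Y-linked DDX3Y had 101 to 902 counts in the 13 embryos labelled male and 0 to 2 in the 11 labelled female. The serum embryo B2 stood apart, with a Spearman correlation of 0.826 with the mean of the other serum embryos against at least 0.916 for every other embryo and its own group, and it was the lowest serum embryo for 17 members and the highest for 9, so serum results are given without it as well where it matters. Of the trophectoderm markers, 4 of the 6 tested were lower in serum than in vivo embryos, and the summed level of the 8 markers was 7513 to 14692 CPM (read counts scaled by TMM to a common library size) in vivo, 324 to 5123 in serum and 4971 to 28317 in serum-free embryos. These sums followed 2 keratins, KRT8, at medians of 8634, 733 and 6868 CPM, and KRT18, at 1801, 178 and 1011. GATA2, at medians of 37.1, 7.05 and 30.8 CPM, and GATA3, at 88.1, 20.9 and 94.9, were also lower in serum than in vivo. TEAD4 had a higher median in serum than in vivo (58.3 and 34.2 CPM), and TFAP2C stayed level (225 and 228). The summed level of 7 inner cell mass markers was 704 to 960 in vivo, 357 to 750 in serum and 426 to 703 in serum-free embryos. Its lower in vitro sums followed PDGFRA, at medians of 470 CPM in vivo, 79.6 in serum and 195 in serum-free embryos, and POU5F1, at 210, 150 and 176, while the medians of NANOG (12.2 and 27.9 CPM), SOX2 (7.77 and 15.8), KLF4 (136 and 164) and GATA6 (17.2 and 20.1) were higher in serum than in vivo. SOX17 was at 0 in 22 of the 24 embryos, and the trophectoderm gene CDX2 was at medians of 0.979, 0.327 and 1.01. Cumulus and granulosa, leukocyte, oviduct and sperm lists each summed to 54.4 CPM or less in every embryo, with PTX3 and FOXJ1 at 0 in all 24, and the oocyte list reached 192 in B2 against medians of 10.99 CPM in vivo, 20.4 in serum and 29.8 in serum-free embryos. The part of these markers and of B2 in the results was not tested, and in whole embryos fewer cells of a type and less RNA per cell cannot be told apart. In RefSeq annotation the spans of 15 members overlap another protein-coding gene, and the library kit does not mark strand, so the values of MSH6, OGG1, MUTYH, DDB2, RAD50, RAD54L, FANCI and RPA2 below are uncertain to that extent.

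The first question was whether repair genes differed between serum and in vivo embryos. A gene was tested if it had at least 15 counts in every embryo of 1 of the groups compared, and passed where edgeR's quasi-likelihood test gave an adjusted p under 0.05, the adjustment (Benjamini-Hochberg) being made across every gene tested in that comparison. Of the 57 members 51 were tested and 15 passed, a share of 29.4% beside 28.3% of all 7339 genes. There were 8 higher in serum and 7 lower, or 15.7% and 13.7% of the members tested beside 14.8% and 13.4% of all genes. A fold change of at least 2 as well was reached by 4 members, WRN, FANCI, FANCM and DDB2, or 7.84% beside 13.8% of all genes. Only 1 member, RAD18, had no overlap between its 8 serum and 8 in vivo values, where 7.11% of all genes did. The median log2 fold change was -0.01 over the members and 0.01 over all genes tested, so the members as a whole sat at the background, and the plot of fold changes by branch shows calls in both directions. Without B2 there were 12 calls, 11 of them shared, beside 28.7% of all genes. With no filter on low counts 7 of the calls held (10.7% of all genes passed), and MSH6, OGG1, MUTYH, POLB, DDB2, RAD54L, FANCM and PCNA lost theirs (adjusted p 0.0544 for POLB to 0.117 for MSH6).

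**Figure D1:**
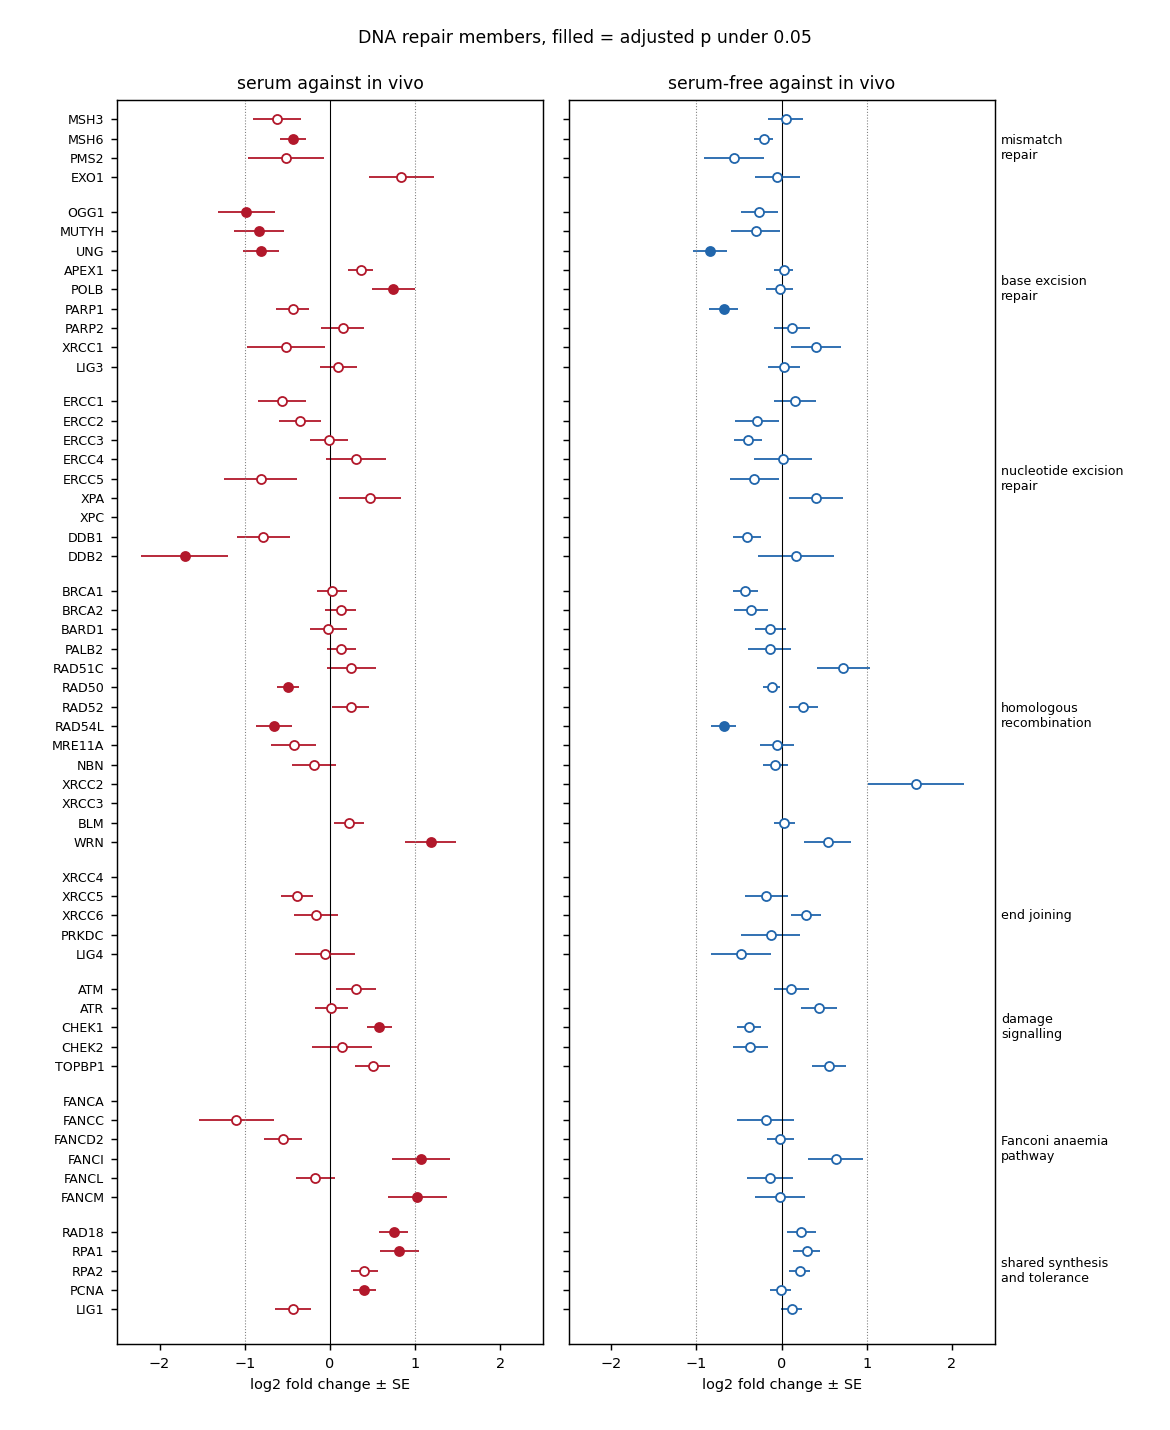
Log2 fold change with its standard error of each tested member in serum against in vivo embryos (left, 51 members) and serum-free against in vivo embryos (right, 53 members), 8 embryos per condition; filled points passed at an adjusted p under 0.05 and dotted lines mark a fold of 2. On the left 15 points are filled, on both sides of 0, and on the right 3, all below 0.

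Base excision repair held the most calls that were lower in serum. UNG, the glycosylase that removes uracil from DNA, was at 86.8, 141 and 158 CPM (lowest, median and highest of 8 embryos) in vivo, at 41.8, 73.4 and 141 CPM in serum and at 34.8, 77.0 and 107 CPM in serum-free embryos. The lowest in vivo embryo, A4, stood apart from the next at 126 CPM, and of all in vitro embryos only B1 was above 126 CPM. Its log2 fold change in serum was -0.81 ± 0.21 (SE), a 1.75-fold lower level, with an adjusted p of 0.00747.

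OGG1, the glycosylase for oxidised guanine, was at 13.2, 23.4 and 33.1 CPM in vivo and 3.99, 9.11 and 22.7 CPM in serum embryos. MUTYH, which removes adenine mispaired with oxidised guanine, was at 17.1, 31.4 and 38.3 CPM in vivo and 4.33, 19.0 and 27.3 CPM in serum embryos. Both ranges overlapped, but the serum medians lay well below those in vivo. OGG1, with 13 counts in its lowest serum embryo, met the count limit through the in vivo embryos alone. OGG1 fell by 0.98 ± 0.33 on the log2 scale (adjusted p = 0.0331) and MUTYH fell by 0.83 ± 0.30 (adjusted p = 0.0421). POLB, the polymerase that fills the gap left by excision, moved the other way, from 36.9, 56.4 and 75.1 CPM in vivo to 51.4, 78.5 and 193 CPM in serum embryos, with a log2 fold change of 0.75 ± 0.25 and an adjusted p of 0.0304. PARP1, which senses strand breaks, was at 967 to 1387 CPM in vivo and 272 to 1137 CPM in serum embryos and did not pass there (-0.44 ± 0.20, adjusted p = 0.101), nor did APEX1, PARP2, XRCC1 and LIG3 (-0.51 to 0.36). Over the branch 1 of 9 members passed as higher and 3 as lower, where 14.8% and 13.4% of all genes did. The branch median was -0.44 beside 0.01 for all genes. UNG passed in all 16 fits that left out 1 embryo. OGG1 lost its call in 11 of them (without A1, A2, A3, A4, A6, A7, B1, B2, B5, B6 or B7; adjusted p 0.05002 to 0.0687), MUTYH in 11 (without A1, A2, A3, A4, A7, A8, A9, B2, B5, B7 or B8; 0.0504 to 0.0921) and in the fits with sex as a covariate (0.0510) or over all 24 embryos (0.0541), and POLB in 3 (without A9, B3 or B5; 0.0571 to 0.0627).

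In mismatch repair, MSH6, which recognises mispaired bases, was the only member of 4 to pass, where 28.3% of all genes did. It was at 469, 615 and 763 CPM in vivo and at 269, 448 and 652 CPM in serum embryos, overlapping ranges with a lower serum median. Its log2 fold change was -0.43 ± 0.16 with an adjusted p of 0.0456. MSH3, its counterpart for larger loops, gave -0.62 ± 0.28 (adjusted p = 0.0981), the endonuclease PMS2 -0.52 ± 0.45 (adjusted p = 0.392) and the exonuclease EXO1 0.84 ± 0.38 (adjusted p = 0.106). The MSH6 call was lost in 13 of 16 fits that left out 1 embryo, all but those without A2, B4 or B5, with adjusted p of 0.05005 to 0.124, and with sex as a covariate (adjusted p = 0.0649).

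Nucleotide excision repair had 1 call among 8 members tested, where 28.3% of all genes were called. DDB2, the damage sensor for ultraviolet lesions, was at 3.15, 5.24 and 7.34 CPM in vivo, 0.226, 0.933 and 4.11 CPM in serum and 0.557, 5.39 and 11.6 CPM in serum-free embryos. These levels rest on 18 to 30 counts per embryo in vivo and 1 to 23 in serum, and of the serum embryos only B4, the highest, lay inside the in vivo range. DDB2 thus met the count limit through the in vivo embryos alone. That limit admits genes this low in serum only where they are higher in vivo, which favours a fall. DDB2 fell by 1.70 ± 0.51 on the log2 scale, a 3.26-fold lower level, with an adjusted p of 0.0185. DDB1, the adaptor that holds DDB2 on the ubiquitin ligase, was at 123, 143 and 175 CPM in vivo and 19.0, 93.1 and 161 CPM in serum embryos and did not pass (-0.78 ± 0.31, adjusted p = 0.0623), nor did the endonuclease ERCC5 (-0.81 ± 0.43, adjusted p = 0.159). DDB1 did pass by the exact test (adjusted p = 0.0428), by DESeq2 (0.0398) and in 1 fit over all 24 embryos (0.0362). XPC, the general lesion sensor, was under the count limit, at medians of 3.93 CPM in vivo, 4.39 in serum and 3.81 in serum-free embryos. The other 5 members, ERCC1, ERCC2, ERCC3, ERCC4 and XPA, lay between -0.56 and 0.47, and the branch median was -0.46. DDB2 passed in all 16 fits that left out 1 embryo, but with no filter on low counts its adjusted p was 0.0906.

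Homologous recombination showed calls in both directions, and BRCA1 and BRCA2 did not pass. WRN, the helicase lost in Werner syndrome, was at 8.36, 16.3 and 30.2 CPM in vivo, 16.6, 36.8 and 72.5 CPM in serum and 11.7, 27.0 and 37.6 CPM in serum-free embryos. In serum all embryos but B1 lay at or above 30.0 CPM, close to the highest in vivo value. Its log2 fold change of 1.18 ± 0.30, a 2.27-fold higher level, had an adjusted p of 0.00695.

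RAD50, part of the MRN complex that binds broken ends, was at 381, 415 and 510 CPM in vivo and 253, 290 and 435 CPM in serum embryos, and fell by 0.49 ± 0.13 (adjusted p = 0.00989). Its partners MRE11A (-0.43 ± 0.26) and NBN (-0.19 ± 0.26) did not pass, with adjusted p of 0.222 and 0.603. RAD54L, a motor protein that helps strand invasion of the intact copy, was at 150, 185 and 262 CPM in vivo and 45.1, 133 and 181 CPM in serum embryos, and fell by 0.65 ± 0.21 (adjusted p = 0.0286). RAD50 and RAD54L thus had lower serum medians with overlapping ranges. BRCA1, which starts resection, was at medians of 224 CPM in vivo and 204 CPM in serum (0.02 ± 0.18, adjusted p = 0.943), and BRCA2, which acts after resection, at 117 and 123 CPM (0.13 ± 0.18, adjusted p = 0.626). The other members tested, BARD1, PALB2, RAD51C, RAD52 and BLM, lay between -0.02 and 0.25, while XRCC2 and XRCC3 were under the count limit. Of 12 members tested 1 passed as higher and 2 as lower, where 14.8% and 13.4% of all genes did, and the branch median was 0.07. WRN and RAD50 passed in all 16 fits that left out 1 embryo, and RAD54L lost its call in 6 of them (without A2, A3, A4, A7, B3 or B5; adjusted p 0.0502 to 0.0734) and with sex as a covariate (0.0529).

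None of the 3 end joining members tested in serum passed by edgeR's quasi-likelihood test, where 28.3% of all genes did. XRCC5 alone had an unadjusted p under 0.05 there, and its adjusted p was 0.131 by the exact test and 0.101 by DESeq2. XRCC5 and XRCC6 form the Ku ring that caps broken ends. XRCC5 was at 38.6, 45.1 and 60.5 CPM in vivo and 25.8, 35.7 and 53.2 CPM in serum embryos (-0.39 ± 0.19, adjusted p = 0.120), XRCC6 gave -0.17 ± 0.26 and the ligase LIG4 gave -0.06 ± 0.35. PRKDC, the kinase that Ku recruits, was under the limit in this comparison with medians of 8.68 CPM in vivo and 6.29 CPM in serum, as was XRCC4 (5.03 and 3.32 CPM).

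Damage signalling had 1 call among its 5 members, where 28.3% of all genes were called. CHEK1, the checkpoint kinase that answers stalled replication, was at 186, 218 and 274 CPM in vivo, 242, 328 and 469 CPM in serum and 98.1, 175 and 202 CPM in serum-free embryos. All serum embryos lay above all serum-free embryos, and the serum range overlapped the in vivo range at its lower end. CHEK1 rose by 0.58 ± 0.15 on the log2 scale against in vivo embryos, a 1.49-fold higher level, with an adjusted p of 0.00726.

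The other 4 signalling members had log2 fold changes above 0 without passing. They were TOPBP1, the activator of ATR (0.50 ± 0.20, adjusted p = 0.0688), ATM, the kinase for double-strand breaks (0.31 ± 0.23, adjusted p = 0.339), CHEK2, its effector (0.14 ± 0.36, adjusted p = 0.791), and ATR, the kinase for exposed single strands (0.02 ± 0.20, adjusted p = 0.964). The summed level of the 5 genes was 350, 400 and 433 CPM in vivo, 440, 513 and 706 CPM in serum and 286, 384 and 408 CPM in serum-free embryos. The highest serum value was B2, where ATM stood at 142 CPM against 71.0 CPM in the next serum embryo, and the other 7 serum embryos lay at 440 to 572 CPM, still above every in vivo and serum-free embryo. Without CHEK1 the sum of the other 4 genes overlapped between the conditions, at 132, 173 and 203 CPM in vivo, 151, 211 and 242 CPM in serum and 169.9, 191 and 247 CPM in serum-free embryos. CHEK1 passed in all 16 fits that left out 1 embryo.

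**Figure D2:**
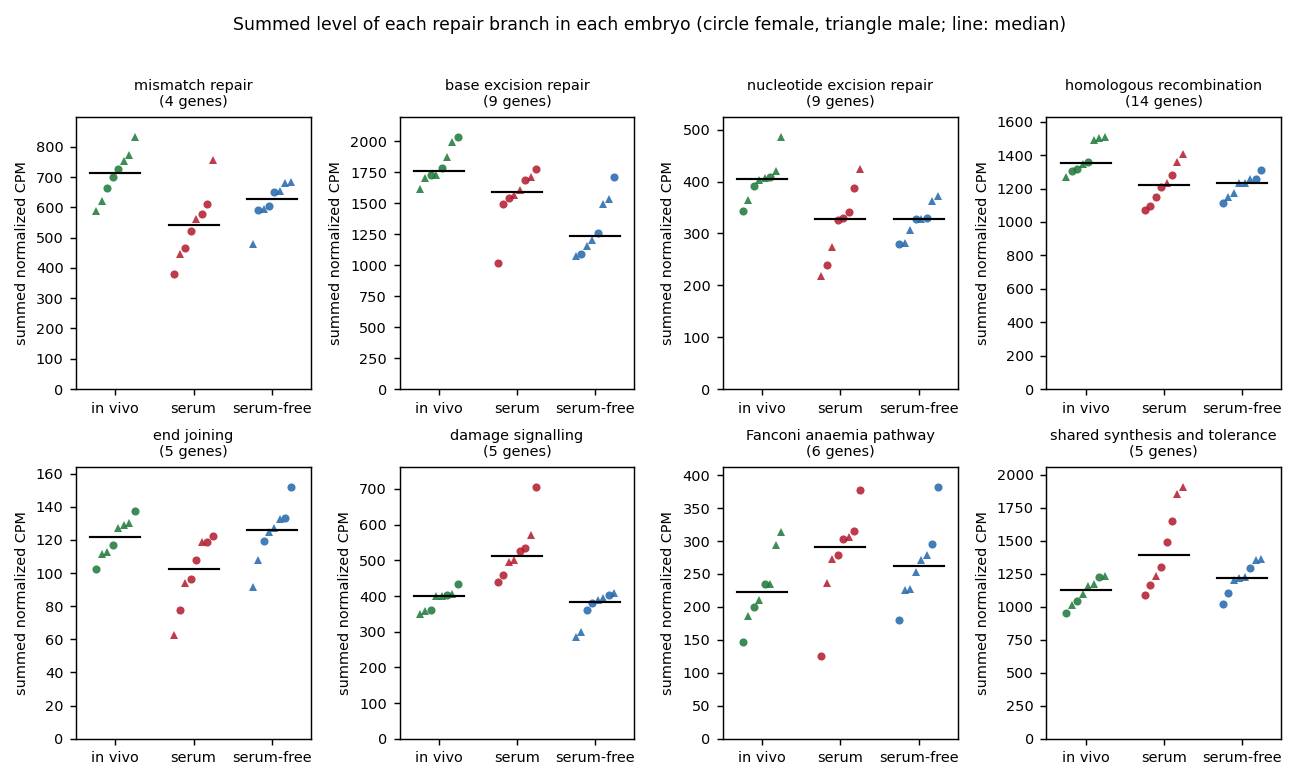
Summed level of the members of each of the 8 branches in each embryo (CPM, TMM-scaled; circles female, triangles male, lines medians of 8). The damage signalling panel shows all serum embryos, 440 CPM and above, over all in vivo and serum-free embryos, 433 CPM and below; the sum without CHEK1 overlapped between conditions (151 to 242 CPM in serum, 132 to 203 CPM in vivo), as do the other panels.

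In the Fanconi anaemia pathway 2 of 5 members tested were called by edgeR's quasi-likelihood test, where 28.3% of all genes were. Both were higher in serum. FANCI, which with FANCD2 forms the clamp loaded at crosslinks, was at 18.8, 76.9 and 137 CPM in vivo, 42.1, 175 and 245 CPM in serum and 55.0, 120 and 224 CPM in serum-free embryos. FANCM, the translocase that recruits the core complex to stalled forks, was at 5.41, 6.83 and 10.3 CPM in vivo and 7.33, 13.2 and 38.5 CPM in serum embryos, the highest being B2. The ranges overlapped for both genes, which rose by 1.07 ± 0.34 (2.10-fold, adjusted p = 0.0261) and 1.02 ± 0.35 (2.03-fold, adjusted p = 0.0338).

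FANCD2 itself gave -0.55 ± 0.22 (adjusted p = 0.0695), the core complex member FANCC -1.10 ± 0.44 (adjusted p = 0.0703) and the ligase FANCL -0.17 ± 0.23 (adjusted p = 0.606). FANCC passed, lower in serum, by the exact test (adjusted p = 0.0444), by DESeq2 (0.0393) and with sex as a covariate (0.0261). FANCD2 passed in 1 fit over all 24 embryos (0.0460). FANCA had 11 counts or fewer in every in vivo and serum embryo and was not tested. FANCI lost its call only without A2 (adjusted p = 0.0513), and FANCM without A1, A3, A4, A7, A8 or B2 (0.0502 to 0.0761) and with sex as a covariate (0.0503). FANCM fell to a log2 fold change of 0.71 without B2, where FANCD2 passed (-0.60, adjusted p = 0.0470).

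Among the 5 genes of shared DNA synthesis and damage tolerance, 3 passed as higher in serum and none as lower, where 14.8% and 13.4% of all genes did. RAD18, the ubiquitin ligase that marks the sliding clamp for bypass of lesions, was at 35.1, 49.1 and 64.5 CPM in vivo, 72.1, 75.6 and 125 CPM in serum and 41.1, 57.1 and 73.2 CPM in serum-free embryos. Its lowest serum embryo lay above its highest in vivo embryo, with or without B2, and the log2 fold change was 0.75 ± 0.17 (1.68-fold, adjusted p = 0.00393). RPA1, the large subunit of the protein that coats single strands, was at 146, 197 and 256 CPM in vivo and 138, 341 and 501 CPM in serum embryos, and rose by 0.82 ± 0.23 (1.76-fold, adjusted p = 0.0126). PCNA, the sliding clamp, was at 315, 369 and 443 CPM in vivo and 358, 460 and 638 CPM in serum embryos, and rose by 0.40 ± 0.13 (adjusted p = 0.0323). The serum medians of RPA1 and PCNA lay above every in vivo value, but their ranges overlapped. RPA2, the second RPA subunit, gave 0.40 ± 0.16 (adjusted p = 0.0662), and LIG1, which seals replicated strands, -0.43 ± 0.21 (adjusted p = 0.124). RPA2 did pass by DESeq2 (adjusted p = 0.0481), with sex as a covariate (0.0230) and in 1 fit over all 24 embryos (0.0473). RAD18 and RPA1 passed in all 16 fits that left out 1 embryo, and PCNA lost its call without A2, A3 or A9 (adjusted p 0.0584 to 0.0644).

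**Figure D3:**
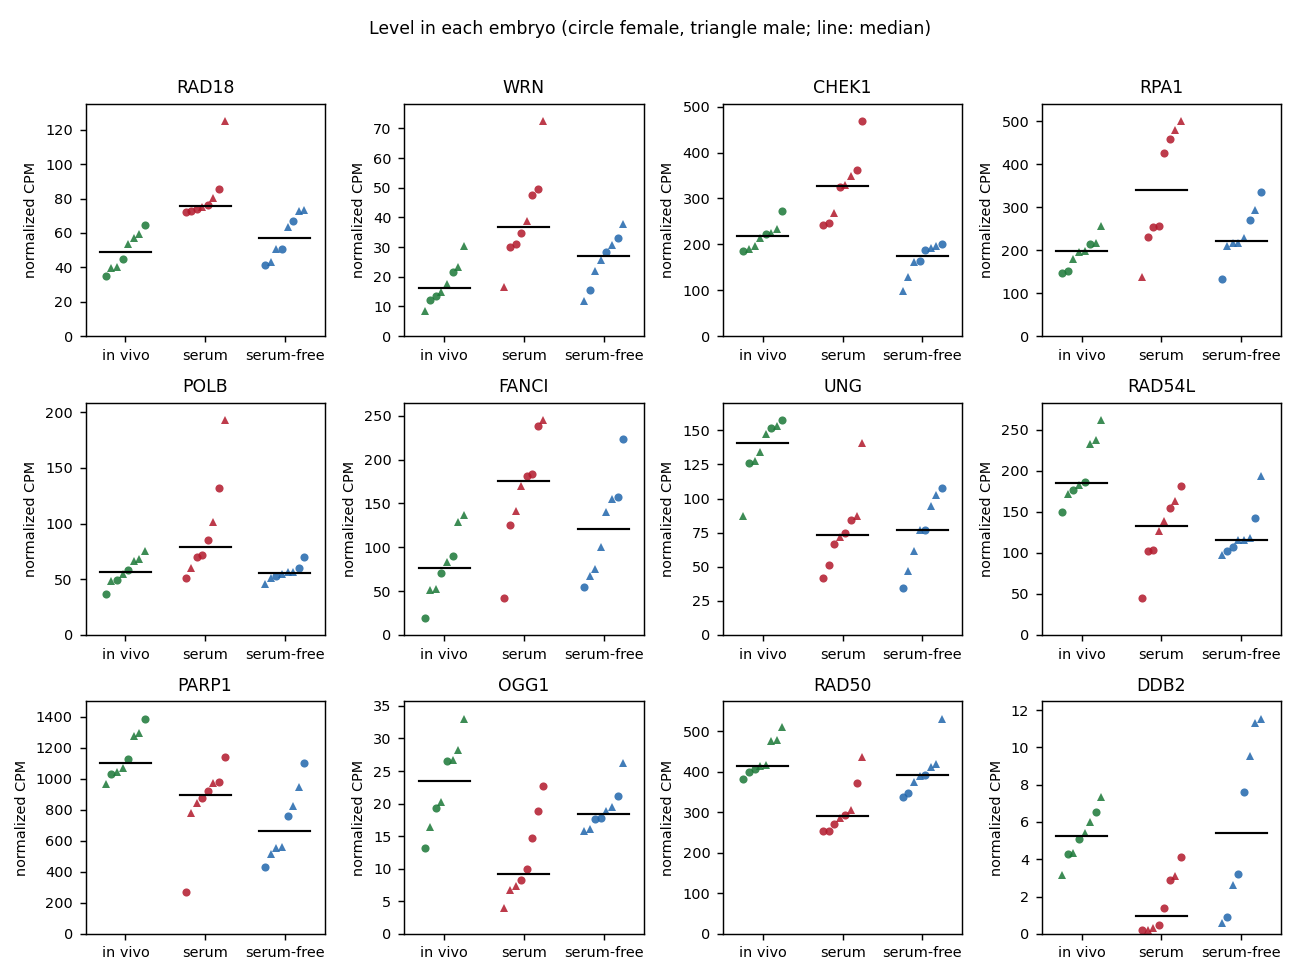
Level of 12 members in each of the 24 embryos (CPM, TMM-scaled, axes from 0; circles female, triangles male, lines medians of 8). RAD18 in serum lies above all in vivo embryos, CHEK1 in serum above all serum-free embryos, and UNG and RAD54L are lower at the median in both in vitro conditions.

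Serum-free embryos were compared with the same 8 in vivo embryos. Of 53 members tested 3 passed, 5.66% beside 5.82% of all 7314 genes, and all 3 were lower, where 2.45% of all genes were lower and 3.38% higher. None of them reached a fold of 2, which 2.20% of all genes did, and no member had groups without overlap, which 0.889% of all genes had. By DESeq2 (9.11% of all genes) and by the edgeR exact test (7.90%) 3 members passed as well. By the quasi-likelihood test 10 members had an unadjusted p under 0.05, 18.9% beside 21.5% of all genes. UNG fell by 0.84 ± 0.20 (1.79-fold lower, adjusted p = 0.0170), with the values given above.

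PARP1 was at 967, 1098 and 1387 CPM in vivo and at 429, 662 and 1102 CPM in serum-free embryos. RAD54L was at 150, 185 and 262 CPM in vivo and at 97.8, 116 and 193 CPM in serum-free embryos, where all but C4 lay under the lowest in vivo embryo. PARP1 fell by 0.68 ± 0.17 (adjusted p = 0.0228) and RAD54L fell by 0.68 ± 0.15 (adjusted p = 0.0109), each 1.60-fold lower. The 3 calls held in all 16 fits that left out 1 embryo, with adjusted p up to 0.0495 for PARP1 without A1, but none held in 1 fit over all 24 embryos, where the spread of the serum embryos enters and 1.53% of all genes passed (adjusted p 0.0545 for UNG, 0.0900 for RAD54L and 0.101 for PARP1).

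The other serum-free values stayed under the threshold. XRCC2 had the largest, 1.58 ± 0.57 (adjusted p = 0.104), at 0, 8.78 and 20.7 CPM in vivo and 4.77, 28.4 and 41.0 CPM in serum-free embryos. With 0 to 84 counts in vivo and 19 to 237 in serum-free embryos, XRCC2 met the count limit through the serum-free embryos alone. BRCA1 gave -0.42 ± 0.15 (adjusted p = 0.0960), TOPBP1 0.55 ± 0.20 (adjusted p = 0.105), CHEK1 -0.38 ± 0.14 (adjusted p = 0.107), DDB1 -0.41 ± 0.16 (adjusted p = 0.141), BRCA2 -0.36 ± 0.20 (adjusted p = 0.320), ATR 0.44 ± 0.21 (adjusted p = 0.237), ATM 0.12 ± 0.20 (adjusted p = 0.793) and FANCD2 -0.02 ± 0.16 (adjusted p = 0.968). MSH6 gave -0.21 ± 0.11 (adjusted p = 0.282), PCNA -0.01 ± 0.13 (adjusted p = 0.972), PRKDC -0.13 ± 0.35 (adjusted p = 0.878) and XRCC6, at 43.1, 52.4 and 74.96 CPM, 0.28 ± 0.18 (adjusted p = 0.367). The median was -0.02 over the members and 0.00 over all genes.

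Since both in vitro conditions were set against the same in vivo embryos, the media were also compared directly. Of 50 members tested 2 passed, 4.00% beside 16.3% of all 7181 genes, and both, CHEK1 and POLB, were higher in serum (8.29% of all genes were, while 8.02% were lower and no member was). No member both passed and reached a fold of 2 (8.91% of all genes did), and CHEK1 was the 1 member without overlap (2.40% of all genes). CHEK1 differed by 0.96 ± 0.18 on the log2 scale (1.94-fold, adjusted p = 0.00394) and passed in all 16 fits that left out 1 embryo. POLB differed by 0.77 ± 0.24 (1.70-fold, adjusted p = 0.0349), with serum-free embryos at 45.5, 55.5 and 70.2 CPM, and lost its call without B3, B5, B7, C1, C6, C7 or C10 (adjusted p 0.0521 to 0.0691).

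RAD18 (0.51 ± 0.18, adjusted p = 0.0582), FANCM (1.04 ± 0.39, adjusted p = 0.0702), PCNA (0.41 ± 0.16, adjusted p = 0.0746) and RAD50 (-0.38 ± 0.14, adjusted p = 0.0758) lay just beyond the threshold. UNG and RAD54L, lower than in vivo in both media, differed between the media by 0.03 ± 0.26 (SE) and 0.03 ± 0.23. The count was 4 by DESeq2 (21.4% of all genes) and 8 in 1 fit over all 24 embryos (25.0%), and without B2 it was 3 (14.96%), as CHEK2 passed (0.70, adjusted p = 0.0489).

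Male and female embryos were then compared apart, with 3 male serum embryos against 5 in vivo and 5 female serum embryos against 3. In males 11 of 54 members passed, 20.4% beside 19.0% of 7762 genes, with 6 higher and 5 lower (11.1% and 9.26% beside 9.19% and 9.77%). In females none of 53 passed (0.418% of 8138 genes did), with 7 at an unadjusted p under 0.05 (21.1% of all genes), a smallest adjusted p of 0.0790, and 2, UNG and WRN, called by both the exact test (6.03% of all genes) and DESeq2 (8.80%). The members that passed in males included OGG1, at 16.4, 20.3, 26.6, 28.3 and 33.1 CPM in vivo and 3.99, 6.76 and 7.29 CPM in serum, which fell by 2.04 ± 0.43 (adjusted p = 0.00797). FANCD2 was at 89.5, 90.8, 108, 115 and 122 CPM in male in vivo and at 29.2, 49.0 and 49.5 CPM in male serum embryos, and fell by 1.30 ± 0.25 (adjusted p = 0.00542). Neither gene's male groups overlapped, as was so for 15 of the 54 members (27.8%) and 26.1% of all genes, and both calls held in all 8 fits that left out 1 embryo.

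FANCC (-2.26 ± 0.64, adjusted p = 0.0305), ERCC5 (-1.90 ± 0.52, adjusted p = 0.0260) and DDB1 (-0.94 ± 0.29, adjusted p = 0.0420) were the other members lower in male serum embryos. Higher there were FANCI (1.03 ± 0.33, adjusted p = 0.0481), RAD18 (0.90 ± 0.26, adjusted p = 0.0297), BRCA2 (0.70 ± 0.21, adjusted p = 0.0394), PCNA (0.61 ± 0.16, adjusted p = 0.0244), RPA2 (0.59 ± 0.17, adjusted p = 0.0304) and CHEK1 (0.58 ± 0.17, adjusted p = 0.0309). These 9 calls each held in 2 to 4 of the 8 fits that left out 1 embryo, with adjusted p up to 0.212 (FANCI without B7), each of the 8 embryos ending at least 1 of them, and the number of male calls ran from 3 without A2 to 21 without B1. FANCC and OGG1, with 2 and 13 counts in B7, met the count limit through the male in vivo embryos alone.

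The difference between the sexes needs its own test. No member passed for the sex by serum interaction (0% of 8446 genes, smallest adjusted p of a member 0.664), with 4 of 55 at an unadjusted p under 0.05 beside 5.16% of all genes, and DESeq2 called 1, BRCA2 (0.166% of all genes). BRCA2 was at 66.7, 108, 109, 109 and 125 CPM in male in vivo, 156, 169 and 182 CPM in male serum, 144, 153 and 157 CPM in female in vivo and 98.8, 103, 106, 122 and 123 CPM in female serum embryos. In males all serum embryos lay above all in vivo embryos, and in females all lay below. With groups this small, 26.1% of all genes did not overlap in males and 22.8% in females, where 8 of 53 members (15.1%) did not. The fold changes were 0.70 in males and -0.43 ± 0.19 in females, a difference of 1.17 ± 0.28 with an unadjusted p of 0.000551 and an adjusted p of 0.664 in edgeR's quasi-likelihood test, and of 0.0355 in DESeq2. FANCD2 differed by -1.33 ± 0.36 (adjusted p = 0.664) and OGG1 by -1.63 ± 0.60 (adjusted p = 0.797).

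**Figure D4:**
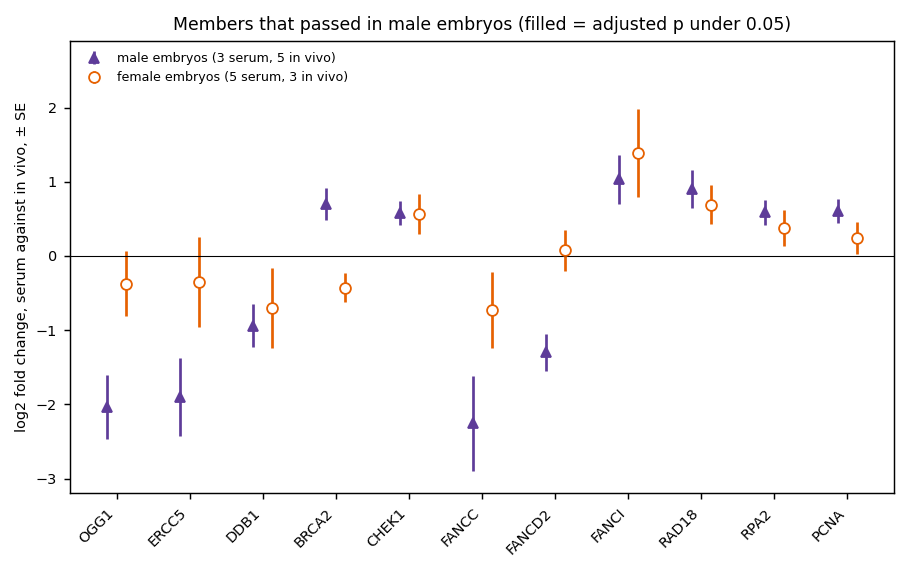
Log2 fold change, serum against in vivo, with its standard error for the 11 members that passed in male embryos (triangles, filled), beside the same in female embryos (open circles, none passed). BRCA2 is above 0 in males and below 0 in females; the interaction did not pass for any member in edgeR.

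In serum-free embryos no member passed within a sex. In males 0 of 54 did (1.76% of 7662 genes), with 8 at an unadjusted p under 0.05 (18.0% of all genes) and a smallest adjusted p of 0.0670, while the exact test called PARP1, RAD54L and TOPBP1 (4.48% of all genes) and DESeq2 these and UNG (6.04%). In females 0 of 54 did by any of the 3 tools (0.304% of 8211 genes by edgeR's quasi-likelihood test), with 7 at an unadjusted p under 0.05 (14.0% of all genes). The sex by serum-free interaction gave none among 54 members by edgeR or DESeq2 (0% of 8425 genes by edgeR), with 2 at an unadjusted p under 0.05 (6.59%). UNG gave -0.73 ± 0.23 in males (adjusted p = 0.104) and -0.99 ± 0.34 in females (adjusted p = 0.246).

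Between males and females of 1 condition none of the 53 members tested passed by edgeR's quasi-likelihood test, its exact test or DESeq2. The background was 1.26% of 7963 genes in vivo, 0.173% of 7534 in serum and 0.152% of 7918 in serum-free embryos. At an unadjusted p under 0.05 there were 3, 3 and 2 members, beside 13.5%, 6.24% and 8.01% of all genes.

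Embryos of 1 condition also differed in how far they varied. The SD of log2(CPM + 1) over 8 embryos was larger in serum than in vivo for 44 of the 53 members past the count limit in at least 1 condition, 83.0% beside 82.7% of 7557 genes, and larger in serum-free than in vivo embryos for 38, 71.7% beside 68.8%. Without B2 the serum count was 41, 77.4% beside 75.3% of all genes. The median SD of the members was 0.32 in vivo, 0.61 in serum and 0.44 in serum-free embryos. FANCC went from 0.32 to 1.31 between in vivo and serum embryos (1.41 without B2). CHEK2 went from 0.31 to 1.31 and DDB1 from 0.19 to 1.02, but B2 was the lowest serum embryo for both, at 2.85 and 19.0 CPM, and without it their serum SD was 0.40 and 0.75. RAD18 and PALB2 went the other way, from 0.31 to 0.26 and from 0.24 to 0.19, and XRCC2 was the most variable member in vivo at 1.61, with an in vivo embryo at 0 counts.

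**Figure D5:**
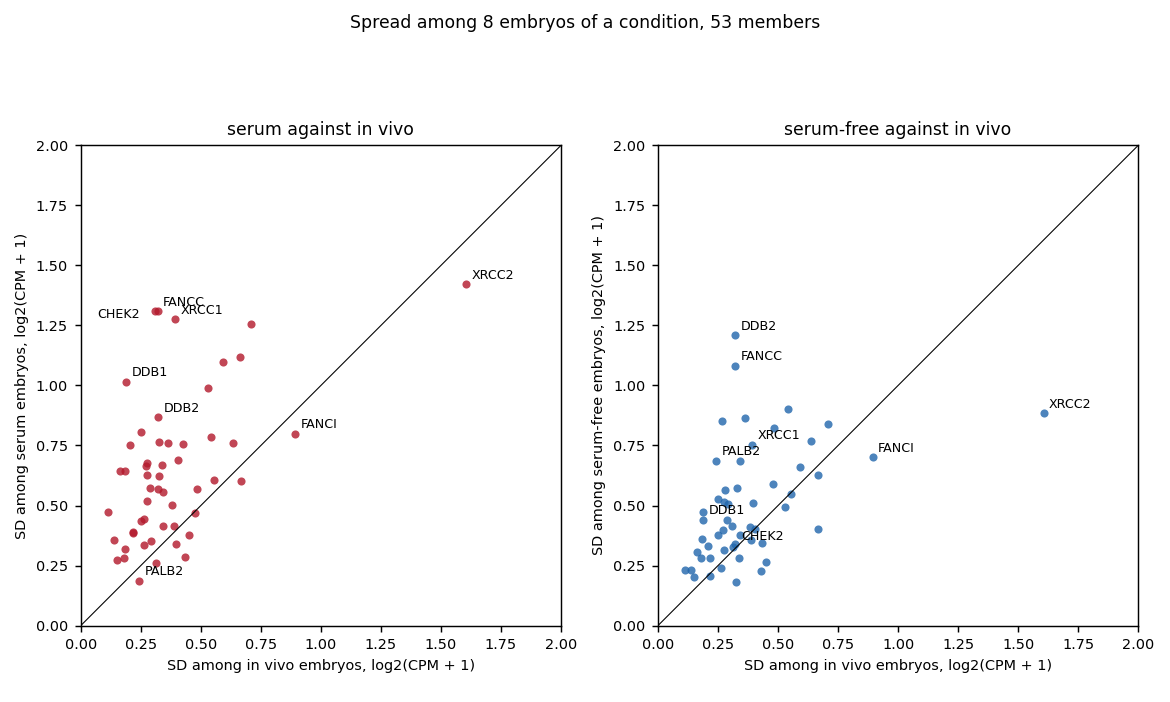
SD of log2(CPM + 1) among the 8 serum (left) or serum-free (right) embryos against that among the 8 in vivo embryos, 1 point for each of 53 members, with the line of equal spread. On the left 44 points and on the right 38 lie above the line.

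A wider list of 105 DNA repair genes, of which 101 were in the table and none is among the 57, was set beside them. In serum against in vivo embryos 14 of 87 tested rose and 7 fell, where 14.8% and 13.4% of all genes did, with a median of 0.06. ALKBH1, a demethylase of nucleic acids, rose by 1.24 ± 0.27 (adjusted p = 0.00296), GTF2H1, a subunit of the TFIIH factor of excision repair and transcription, rose by 0.59 ± 0.14 (adjusted p = 0.00422) and ERCC8, a part of transcription-coupled repair, rose by 0.91 ± 0.21 (adjusted p = 0.00461). TDG, the glycosylase for thymine mispaired with guanine, was at 21.7, 46.7 and 60.9 CPM in vivo, 0, 6.50 and 20.4 CPM in serum and 15.05, 39.1 and 74.7 CPM in serum-free embryos. Its serum embryos all lay under its in vivo embryos, as was so for 4.17% of all genes, and TDG fell by 2.24 ± 0.64 (adjusted p = 0.0137). With a serum embryo at 0, TDG met the count limit through the in vivo embryos alone, which favours a fall. The alternative fits were not examined for the wider genes. The helicase RTEL1 fell by 1.46 ± 0.43 (adjusted p = 0.0163) and the ubiquitin ligase RNF8 fell by 0.58 ± 0.17 (adjusted p = 0.0163). In serum-free embryos 2 of 85 rose and 1 fell, where 3.38% and 2.45% of all genes did.

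Of 26 genes of proliferation and the cell cycle, 5 of 25 tested rose in serum and 4 fell, where 14.8% and 13.4% of all genes did. In serum-free embryos 0 of 24 passed, beside 5.82% of all genes, and 4 had an unadjusted p under 0.05, beside 21.5%. The mitotic kinase AURKA rose by 1.09 ± 0.23 (adjusted p = 0.00259) and the replicative helicase subunit MCM5 fell by 0.94 ± 0.21 (adjusted p = 0.00384). The summed level of the list was 5400 to 7111 CPM in vivo, 4548 to 8929 CPM in serum and 4527 to 6456 CPM in serum-free embryos, and its part in the repair results was not tested.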

How the data were processed

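Single early blastocysts (24, 8 per condition) were sequenced from amplified RNA. The authors deposited raw counts of uniquely mapped exon reads per gene. Per the labels, reads were mapped to the bovine build UMD3.1, and the study's methods name the CLC Genomics Workbench for mapping trimmed paired reads and counting. The kit does not mark strand and amplifies by PCR without molecular identifiers, so counts are not independent molecules.

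From these counts, genes with at least 15 counts in every embryo of at least 1 group compared were tested in edgeR 4.0.16 (R 4.3.3) with TMM factors and the quasi-likelihood test, only the groups compared in a fit, and Benjamini-Hochberg adjustment over all genes tested; the threshold was 0.05. Standard errors were taken as the fold change over the square root of F. Levels are CPM scaled by TMM over all 24 embryos. Lengths were not used, so levels are compared between embryos for the same gene or the same sum. Genes with the most reads weigh most in a sum. In vivo the median of PARP1 was 1098 CPM beside 1757 for summed base excision repair, and that of MSH6 615 beside 712 for summed mismatch repair. Alternatives were the edgeR exact test (named in the study's methods), DESeq2 1.42.0, its size factors, no filter, sex as a covariate, 1 fit over all 24 embryos, a fold of at least 2, each embryo left out in turn and, chosen after seeing the data, counts thinned to the smallest total and the embryo number as a block. The statistics were tested on simulated data. Each embryo is a separate sample; p-values measure the spread between embryos.

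The members and lists were chosen with earlier results of these data known. Genes named are all members that passed in any comparison or did not overlap between conditions, those that passed in a sex comparison, the member with the smallest p in a branch without a call, and BRCA1, BRCA2, ATM, ATR, PRKDC, PARP1, PCNA, MSH6, XPC and FANCD2; others are given by range, or with values as chosen after they were seen. Of 105 wider genes 101 matched a symbol, and of 10 oocyte genes 9. Overlapping genes were read from the gene spans in RefSeq annotation of a later bovine assembly, in which all 57 members were found. Its coordinates served only for this, and overlaps in UMD3.1, used for mapping, were not examined. Sequences are not analysed here.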

Additional observations from a re-analysis of the deposited data

Results flagged for a closer look

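Among the 29 members named and 8 branch sums plus the sum of all members, 114 groups of 8 embryos were examined for an embryo far from the others of its condition, and 12 were marked because the gap to the nearest embryo took a larger part of the whole range than Dixon's 95% limit for 8 samples; chance marks about 1 in 20 groups. The serum embryo B2 accounted for 4. It was the lowest serum embryo for PARP1, at 272 CPM with the next at 778, and for summed base excision repair, at 1016 CPM with the next at 1490, and the highest for ATM, at 142 CPM with the next at 71.0, and for FANCM, at 38.5 CPM with the next at 19.6. Without B2, the serum against in vivo log2 fold change was -0.27 for PARP1 (adjusted p = 0.0774), 0.10 for ATM (adjusted p = 0.724) and 0.71 for FANCM (adjusted p = 0.0761). The serum-free embryo C4 accounted for 3, being highest for RAD54L (193 CPM, next 143) and PCNA (534 CPM, next 390.1) and lowest for summed mismatch repair (480 CPM, next 590).

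The remaining 5 were single values. UNG was lowest in vivo in A4 (86.8 CPM, next 126) and highest in serum in B1 (141 CPM, next 87.5). RAD18 was highest in serum in B5 (125 CPM, next 85.5), RAD50 highest in serum-free in C7 (531 CPM, next 418) and XPC highest in serum in B3 (13.3 CPM, next 5.53). RAD18 without B5 and UNG without A4 or B1 still passed.

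BRCA2 was marked because its serum against in vivo difference went in opposite directions in male and female embryos, with no overlap in either sex (26.1% of all genes did not overlap in males and 22.8% in females) and a difference of 1.17 on the log2 scale. DESeq2 gave this difference an adjusted p of 0.0355 and edgeR's quasi-likelihood test 0.664, so the call rests on the tool. It also rests on 3 male serum and 3 female in vivo embryos.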

How the results depend on the processing

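No alternative reversed the direction of a call among the named members in the 3 comparisons of all embryos. The number of members passing moved as follows, with the share of all genes that passed in brackets except for fits that left out 1 embryo. In serum against in vivo it was 15 (28.3%), 7 with no filter on low counts (10.7%) and 4 with a fold of at least 2 (13.8%). It was 17 by the exact test (31.3%), 19 by DESeq2 (32.8%), 18 in 1 fit over all 24 embryos (31.1%) and 13 with sex as a covariate (28.5%). With 1 embryo left out it was 9 (without A3) to 20 (without B4), and 12 without B2, of which 11 were among the 15. In serum-free against in vivo it was 3 (5.82%), and 0 with a fold of at least 2 (2.20%) or in 1 fit over all 24 embryos (1.53%). In serum against serum-free it was 2 (16.3%), 4 by DESeq2 (21.4%), 1 with no filter (4.03%), 8 in 1 fit over all 24 embryos (25.0%) and 0 with a fold of at least 2 (8.91%). With 1 embryo left out it was 1 (without B3, B5, C1 or C10) to 6 (without B1). In male serum against male in vivo it was 11 (19.0%), 5 with a fold of at least 2 (13.3%) and 3 to 21 with 1 embryo left out. In the female serum comparison it was 0 (0.418%), 2 by the exact test (6.03%), 2 by DESeq2 (8.80%) and 1 in 1 fit over all 24 embryos (7.89%). With 1 embryo left out it was 0 to 2 (without B2). In the male serum-free comparison it was 0 (1.76%), 3 by the exact test (4.48%), 4 by DESeq2 (6.04%) and 1 with no filter (0.65%). With 1 embryo left out it was 0 to 1 (without C1 or C4). It was 0 (0.304%) and then 3 with no filter (1.67%) in the female serum-free comparison. For the sex by serum interaction it was 0 (0%) and then 1 by DESeq2 (0.166%). With no filter 19159 genes entered the serum against in vivo comparison in place of 7339; the other causes were not tested.

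Groups of 3 embryos limit what a missed call within a sex shows. Thinning all embryos to the smallest total gave 14, 3 and 3 members in the 3 comparisons of all embryos, beside 29.3%, 5.62% and 17.7% of all genes. DESeq2's size factors gave 15, 3 and 2, beside 28.4%, 5.77% and 16.3% of all genes. Ratios of summed branch levels differed between shares of all counts and TMM-scaled levels by less than 1 SD in all 27 ratios. At this depth XPC, XRCC3, XRCC4 and FANCA were under the count limit in all 3 comparisons. The 3 conditions share 7 embryo numbers, which the labels tie to no cow, experiment or lane. Deviations from the group mean of same-numbered embryos had correlations of -0.13 to 0.09 over the 3 comparisons, none above 0.1. Such correlations cannot decide whether a number stands for a shared experiment or lane, so its meaning stays unknown. With the number as a replicate block over the 14 embryos of each comparison that share them, chosen after seeing the data, 4, 3 and 0 members passed in serum against in vivo, serum-free against in vivo and serum against serum-free, beside 9, 3 and 1 in the same embryos without the block. In serum against in vivo the 4 with the block were all lower in serum, so no call higher in serum held there. Without the block 4 were higher and 5 lower. Of all genes 14.4%, 2.14% and 0.411% passed with the block, and 23.1%, 3.73% and 8.54% without it. Of the 7 pairs 1, 2 and 0 correlated best with their own number. Males of the serum-free comparison share 3 numbers and gave 0 with or without the block; the other comparisons within a sex share fewer than 2 numbers.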
